A study of Mus musculus with 8 samples.

Results

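Microvillous cells are the rare non-neuronal cells of the olfactory epithelium whose apical surface carries short microvilli. The 8 genes described here, Ascl3, Trpm5, Pou2f3, Foxi1, Itpr3, Plcb2, Chat and Cftr, are used as markers of these cells and of the tuft-like cells they resemble. They were chosen by name, and each was read from the transcript cluster that carries its symbol alone, which gave 8 genes of 19928 with a single symbol on the array. The study took total RNA from the olfactory mucosa of 8 pups of mixed 129 x C57BL/6J background, 3 days after birth, and hybridized each to an Affymetrix Mouse Gene ST array. The mutants were 4 123Cre:Lhx2(fl/fl) mice, called cKO here. The littermate controls were 2 Lhx2(fl/+) mice without Cre (controls 1 and 2) and 2 123Cre:Lhx2(fl/+) mice (controls 3 and 4), so every mouse carried at least 1 floxed allele of Lhx2, which encodes a LIM-homeodomain transcription factor. The 123Cre transgene recombines the floxed exons from the stage of the immature olfactory sensory neuron (OSN) onward, in only part of the neurons, and in the study's reporter mice all recombined cells of the OSN layers had the shape of neurons.

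Tuft-like and ionocyte-like microvillous cells are commonly told apart. Tuft-like cells depend on the POU-domain transcription factor Pou2f3. Plcb2, Itpr3 and Trpm5 are grouped with them by a cascade known from taste cells. There phospholipase C (Plcb2) produces inositol trisphosphate and its receptor (Itpr3) releases calcium from internal stores. Calcium then opens the cation channel Trpm5. Whether the same cells of the olfactory mucosa make these genes was not determined. Many tuft-like cells also make choline acetyltransferase (Chat), the enzyme of acetylcholine synthesis. Ionocyte-like cells express the basic helix-loop-helix factor Ascl3 and the forkhead factor Foxi1, together with the chloride channel Cftr and proton pumps. The genes are grouped here by these general schemes, and which cells of the mucosa gave each value was not determined. Because Lhx2 was deleted in neurons, these genes ask whether RNA of a cell type outside the deleted lineage differed between the groups.

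No microvillous cell gene passed the threshold, an adjusted p under 0.01 by limma over all 19928 genes. Of the 8 genes 0 fell and 0 rose, against 2.07% of all genes that fell and 0.0602% that rose. At an adjusted p under 0.05 the members were again 0 in either direction, against 5.17% lower and 0.366% higher among all genes. At an unadjusted p under 0.05, 1 member was higher (Ascl3) and 0 were lower, against 5.13% higher and 9.87% lower among all genes. The methods' t-test also called 0 members, also before adjustment. For none of the 8 (0 genes) did the 4 cKO arrays lie entirely above or entirely below the 4 controls, which was the case for 3.18% and 8.43% of all genes.

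The fitted differences were all small and above 0. They ran from 0.05 to 0.20 on the log2 scale, which corresponds to 104% to 115% of the control level, and their median was 0.10. A difference above 0 was found in 62.3% of all genes, whose median was 0.03, and in 66.2% of the genes that encode no chemoreceptor. The 95% confidence intervals of 7 members included 0. Over all 8 genes the lowest lower bound was 89.9% of the control level (Plcb2) and the highest upper bound 131% (Ascl3). In bulk tissue, a change in the number of cells of a type and a change in RNA per cell cannot be told apart.

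**Figure D1:**
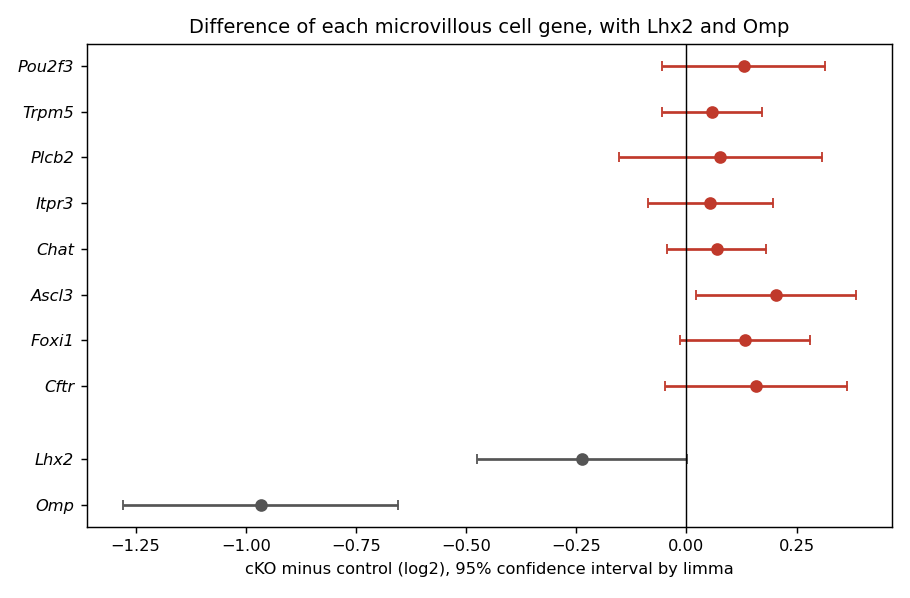
The cKO minus control difference of each microvillous cell gene (red) is shown on the log2 scale with its 95% confidence interval by limma, with Lhx2 and Omp in grey for comparison. The 8 red points lie between 0.05 and 0.20 and 7 of their intervals cross 0, while the interval of Omp runs from -1.28 to -0.65.

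For comparison, Omp, the marker protein of mature OSNs, read 12.68, 11.997, 12.62 and 12.59 in cKO mice 1 to 4 against 13.39 to 13.49 in the controls. It fell to 51.2% of the control level (log2 difference -0.97, SE 0.14, adjusted p = 0.00605), a call that was lost, with the difference between -1.02 and -0.92, when any control or cKO mouse 3 or 4 was left out, with either control genotype alone and by the methods' t-test after adjustment. The study reports only a slight reduction of mature OSN number in these mutants. It gives for this the mean of many mature OSN-specific mRNAs and the thickness of the Omp-positive cell layer. The Omp value here lay further below the control level than either of these measures. The RNA of a single marker is not a count of neurons, and the reason for the gap was not tested. Lhx2, measured by a cluster that combines the deleted and the retained exons, read 13.03, 12.55, 13.01 and 13.02 in cKO mice 1 to 4 and 13.09 to 13.20 in the controls, a difference of -0.24 that did not pass (adjusted p = 0.337) and that was -0.12 without cKO mouse 2 (adjusted p = 0.293). Cyp2g1, an abundant enzyme of sustentacular cells named outside the naming rule, lay between 14.28 and 14.32 on all 8 arrays. Its pooled standard deviation within the groups was 0.01, against a median of 0.10 for all genes. Whether a signal this bright could still follow a change in RNA was not tested. The array medians over all clusters were 8.82 to 8.89.

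Among the tuft-like genes, Pou2f3 encodes the factor without which these cells do not form. It read 8.29, 8.52, 8.50 and 8.57 in controls 1 to 4 and 8.63, 8.71, 8.65 and 8.42 in cKO mice 1 to 4. Mutants 1, 2 and 3 lay above every control, but cKO mouse 4 lay below 3 of the 4 controls. The difference was 0.13 (SE 0.08, adjusted p = 0.535), and it was 0.07 without control 1, the lowest mouse, and 0.03 within the mice whose sample titles open with the letter A (cKO mice 1, 3 and 4 and controls 3 and 4).

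Trpm5, the channel at the end of the cascade, varied little between mice. It read 7.78, 7.89, 7.86 and 7.97 in controls 1 to 4 and 7.97, 7.96, 7.92 and 7.90 in cKO mice 1 to 4. The highest of the 8 values was that of control 4, so that no mutant exceeded the control range, and the difference was 0.06 (SE 0.05, adjusted p = 0.671). It lay between 0.03 and 0.09 with single mice left out, lowest without control 1, and was 0.01 within title letter A. The pooled standard deviation within the groups was 0.06, against a median of 0.10 for all genes.

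Plcb2, the phospholipase C of the cascade, was the most variable of the 8 genes, with a pooled standard deviation of 0.16. It read 8.14, 8.33, 7.95 and 8.09 in controls 1 to 4 and 8.12, 8.35, 8.35 and 8.004 in cKO mice 1 to 4. The groups overlapped over almost their whole range, and the difference was 0.08 (SE 0.10, adjusted p = 0.798). With single mice left out it lay between 0.02, without control 3, and 0.14, without cKO mouse 4. Plcb2 is also expressed in leukocytes. The mean of 15 macrophage and leukocyte markers ranged from 8.15 to 8.42 in controls and from 8.35 to 8.39 in the mutants, 15 of the 15 had a difference above 0 with a median of 0.08, and their part in the Plcb2 value was not tested.

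Itpr3 read 9.86, 9.90, 9.72 and 9.70 in controls 1 to 4 and 9.89, 9.94, 9.79 and 9.78 in cKO mice 1 to 4. Its difference of 0.05 (SE 0.06, adjusted p = 0.762) was the smallest of the 8, and lay between 0.02, without control 4, and 0.09, without control 2, with single mice left out. The groups overlapped, with the 123Cre:Lhx2(fl/+) controls as the lowest of all mice.

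Chat, the enzyme that makes acetylcholine, read 6.76, 6.69, 6.69 and 6.62 in controls 1 to 4 and 6.75, 6.83, 6.68 and 6.77 in cKO mice 1 to 4. The difference was 0.07 (SE 0.05, adjusted p = 0.597), or 0.05 to 0.10 with single mice left out, and cKO mice 2 and 4 alone exceeded all controls. Genes of vomeronasal receptors, which are made in another organ, gave a median of 5.37 and a 95th percentile of 6.73 over 166 genes. The mean of the vomeronasal markers varied between mice, from 8.20 to 9.62 in controls and from 8.34 to 9.30 in mutants. Whether the samples held vomeronasal tissue was not tested, so the receptor range may not be that of absent genes. The Chat values lay at the upper edge of the receptor range. Detection calls were not used here, and probes differ in brightness, so this gives no measure of how much Chat RNA was present.

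**Figure D2:**
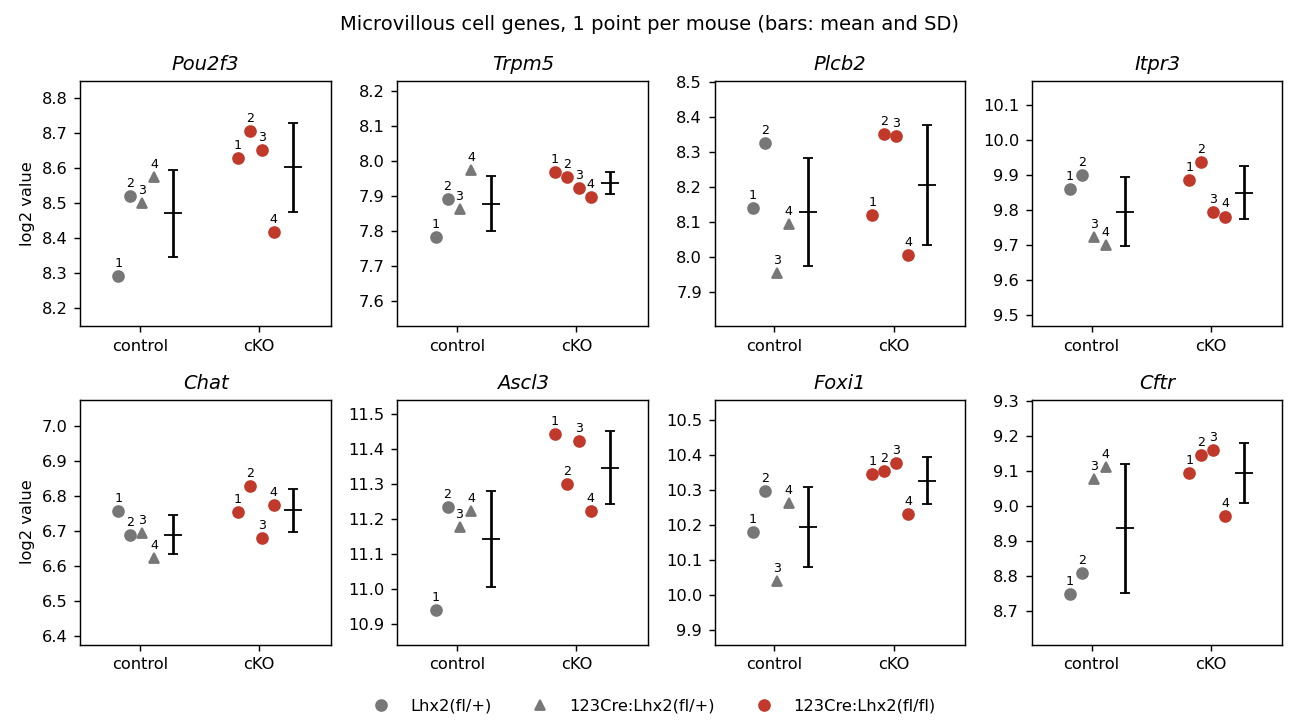
Log2 values of the 8 genes are plotted with 1 numbered point per mouse, for Lhx2(fl/+) controls (grey circles), 123Cre:Lhx2(fl/+) controls (grey triangles) and cKO mice (red circles), and the bars give mean and SD of 4 mice. Every panel spans the same height on the log2 scale, and in each the 2 groups overlap.

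Among the ionocyte-like genes, Ascl3 had the largest difference of the 8. It read 10.94, 11.23, 11.18 and 11.22 in controls 1 to 4 and 11.44, 11.30, 11.42 and 11.22 in cKO mice 1 to 4. Mutants 1, 2 and 3 lay above every control, and cKO mouse 4 lay level with controls 2 and 4. The difference was 0.20 (SE 0.08, interval 0.02 to 0.38), or 115% of the control level, and did not pass the threshold (adjusted p = 0.26). Control 1 was the lowest mouse, and without it the difference was 0.14.

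Foxi1, a factor that directs the ionocyte program in several epithelia, read 10.18, 10.30, 10.04 and 10.26 in controls 1 to 4 and 10.35, 10.36, 10.38 and 10.23 in cKO mice 1 to 4. As for Ascl3, mutants 1, 2 and 3 lay above every control while cKO mouse 4 did not. The difference was 0.13 (SE 0.07, adjusted p = 0.404), and it was 0.08 without control 3, the lowest mouse.

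Cftr, a cyclic AMP-regulated chloride channel, read 8.75, 8.81, 9.08 and 9.11 in controls 1 to 4 and 9.09, 9.15, 9.16 and 8.97 in cKO mice 1 to 4. The difference was 0.16 (SE 0.09, adjusted p = 0.493), or 0.09 without control 1 and 0.22 without control 4. The controls fell apart by genotype, with both Lhx2(fl/+) mice below both 123Cre:Lhx2(fl/+) mice. Against the Lhx2(fl/+) controls alone the cKO difference was 0.31 (adjusted p = 0.106), and against the 123Cre:Lhx2(fl/+) controls alone it was -0.00025 (adjusted p = 0.999).

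The control genotypes were separated in 3 of the 8 genes, Cftr, Itpr3 and Plcb2, against 37.7% of all genes. The 123Cre:Lhx2(fl/+) mice were higher by 0.32 in Cftr, and the Lhx2(fl/+) mice were higher in the other two, by 0.17 in Itpr3 and 0.21 in Plcb2 (fitted as 123Cre:Lhx2(fl/+) minus Lhx2(fl/+), -0.17 and -0.21). With the Lhx2(fl/+) controls alone the differences of Itpr3 and Plcb2 turned to -0.03 and -0.03. The letter that opens the sample titles, whose meaning is not stated, divides the controls in the same way, so that genotype and letter cannot be told apart among them. Within letter A, Cftr differed by -0.02 and the other 7 genes remained above 0.

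Control 1 was the lowest of the 8 mice in Ascl3, Trpm5, Pou2f3 and Cftr, controls 3 and 4 were lowest in 2 genes each, and no mutant was lowest in any (0 genes). The cKO mouse 2, which had the lowest Lhx2 and Omp values, was the highest in 4 genes, Pou2f3, Itpr3, Plcb2 and Chat. Averaged over the 8 genes, the deviation from each gene's own mean was -0.12, -0.0015, -0.08 and -0.01 in controls 1 to 4 and 0.07, 0.11, 0.08 and -0.05 in cKO mice 1 to 4, so that cKO mouse 4 lay below controls 2 and 4.

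**Figure D3:**
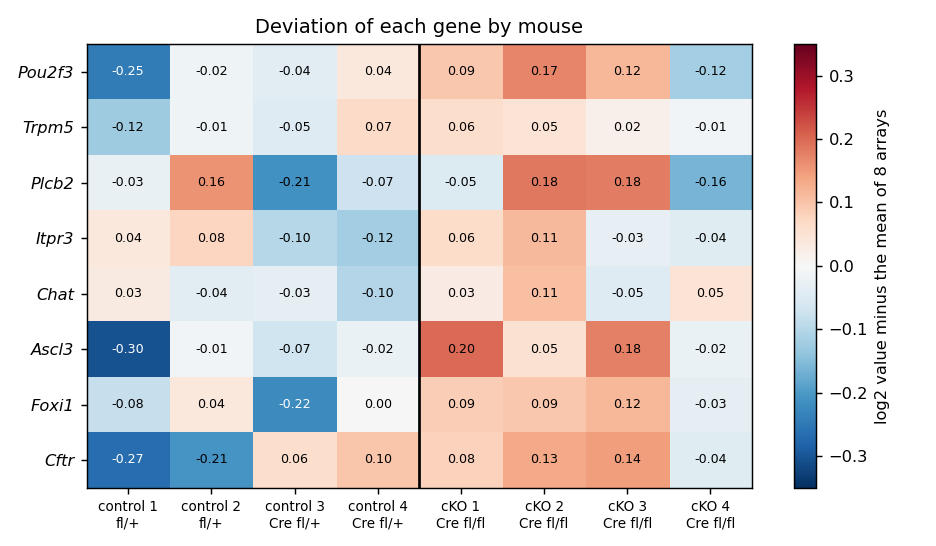
Each cell gives the log2 value of a gene (rows) in a mouse (columns) minus that gene's mean over the 8 mice, from blue (below) to red (above), with controls left and mutants right of the line. Control 1 reads -0.30 in Ascl3, -0.25 in Pou2f3 and -0.27 in Cftr, and cKO mouse 4 stands apart from the other mutants with 7 of 8 cells below 0.

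Correlations between the members were tested over the 28 pairs, and 0 pairs passed correction by exact permutation of the 8 arrays, 2-sided. The values were not centred on the group means, so r and its p mix the difference between groups with the variation between mice. The smallest adjusted p was 0.103 for Pearson's r, with 7 pairs at an unadjusted p under 0.05, and 0.0676 for Spearman's rho. The pair with the highest Pearson r was Ascl3 and Pou2f3, with Pearson r = 0.86 (exact p = 0.00786) and Spearman rho = 0.79 (exact p = 0.0279, adjusted p = 0.156 by permutation), and r was 0.68 without the 2 mice farthest from the Ascl3 median. Trpm5 and Pou2f3 gave r = 0.86 (exact p = 0.00734), rho = 0.71 (exact p = 0.0576) and r = 0.76 without the 2 farthest mice. By rho the order was another one, with Pou2f3 and Cftr, Ascl3 and Foxi1, and Pou2f3 and Foxi1 highest at rho = 0.88 each (exact p = 0.00724) and r = 0.82, 0.67 and 0.65. The lowest Pearson r was that of Itpr3 and Cftr, at -0.27 (exact p = 0.503) with rho = -0.05 (exact p = 0.935), and the lowest rho was -0.24 (exact p = 0.582), for Chat with Trpm5 and Chat with Cftr. Ascl3 and Trpm5 fell from r = 0.82 to r = 0.35 without the 2 mice farthest from the Ascl3 median. Of the pairs 22 had r above 0, and pairs that share a gene are not independent of one another. The share among pairs of all genes was not computed, so these counts show nothing particular to the members.

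By the same measure, the nearest non-member among 9961 genes of at least median level was Sema4c for Ascl3 (r = 0.99 over 8 arrays), Tab2 for Foxi1 (r = 0.99), Tnfaip2 for Plcb2 (r = 0.99), Cep63 for Cftr (r = 0.98), Usp5 for Pou2f3 (r = 0.97), Spry1 for Itpr3 (r = 0.97), Cadm1 for Trpm5 (r = 0.96) and Zyg11b for Chat (r = 0.93). With 8 arrays and this many genes, values of that size describe the likeness and carry no test. Sema4c, Usp5, Tab2, Spry1 and Tnfaip2 were also among the 3 nearest genes after each gene had been centred on its group means.

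The other genes of the tuft-like cell did not pass either. Of 29 tested, 0 fell and 0 rose by limma, with a median difference of 0.04. At an unadjusted p under 0.05, 1 was lower and 0 were higher, against 9.87% and 5.13% of all genes. The gene with the smallest p was Gng13, which encodes the G-protein gamma subunit of taste transduction and is also abundant in OSNs. It read 11.34, 9.96, 11.22 and 11.21 in cKO mice 1 to 4 against 11.91 to 12.15 in the controls, with a difference of -1.06 (SE 0.27, adjusted p = 0.0634). Without cKO mouse 2 the difference was -0.74 and passed (adjusted p = 0.0006), as it did within title letter A (-0.71, adjusted p = 0.00559). The next were Spib, a transcription factor of the Ets family (0.08, adjusted p = 0.417), Sh2d6, an adaptor protein of tuft cells (0.17, adjusted p = 0.446), and the kinase Matk (0.12, adjusted p = 0.471). In Spib all 4 mutants exceeded all controls, as in 3.18% of all genes. Gnat3, the G-protein alpha subunit of taste transduction, named after its value was seen, read 5.43 to 6.21 in controls and 5.63 to 6.28 in mutants, with a difference of 0.07 (SE 0.18, adjusted p = 0.905) that turned to -0.21 within title letter A.

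Ionocyte-like genes other than the members gave 0 lower and 0 higher of 24 tested, with a median of 0.09. At an unadjusted p under 0.05 they gave 5 higher and 1 lower, against 5.13% higher and 9.87% lower among all genes. Atp6v1g3, a subunit of the proton pump of ionocytes, read 8.15, 8.03, 7.81 and 8.02 in controls 1 to 4 and 8.49, 8.18, 8.29 and 8.26 in cKO mice 1 to 4. All mutants lay above all controls, as in 3.18% of all genes, with a difference of 0.30 (SE 0.09, adjusted p = 0.0948). The adaptor protein gene Stap1 was separated in the same way, at 10.27 to 10.45 in controls and 10.49 to 10.57 in mutants, with a difference of 0.17 (adjusted p = 0.105). Coch differed by 0.19 (adjusted p = 0.18) and the calcium-activated potassium channel gene Kcnma1, which is also a neuronal gene, by -0.15 (adjusted p = 0.147). Moxd1, named after its value was seen, differed by 0.19 (adjusted p = 0.225).

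In the cholinergic list, 1 of 11 genes fell and 0 rose, against 2.07% and 0.0602% of all genes, with a median of 0.04. Slc44a4, a member of the choline transporter-like family, read 10.48, 10.37, 10.31 and 10.34 in controls 1 to 4 and 10.11, 10.01, 9.92 and 9.91 in cKO mice 1 to 4. All mutants lay below all controls, as in 8.43% of all genes, and the difference was -0.38 (SE 0.06, adjusted p = 0.00805), or 76.6% of the control level. The call was kept in 9 of 22 alternative settings, each at its own cutoff, and the difference was below 0 in all 22. Those 9 include the main fit at an adjusted p under 0.05, which Slc44a4 passes by construction, and the t-test without adjustment. Without each single mouse the adjusted p of Slc44a4 was 0.0283, 0.0247, 0.02 and 0.026 for controls 1 to 4, and 0.00666, 0.0118, 0.0274 and 0.0267 for cKO mice 1 to 4. The nicotinic receptor gene Chrna5 (-0.21, adjusted p = 0.0823), Chrna3 (0.22, adjusted p = 0.404) and Chrnb4 (0.11, adjusted p = 0.416) did not pass. The vesicular acetylcholine transporter Slc18a3 (-0.01, adjusted p = 0.974) and the choline transporter Slc5a7 (0.02, adjusted p = 0.89), both named after their values were seen, had differences near 0.

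Phosphoinositide signalling genes gave 0 lower and 0 higher of 16 tested, with a median of 0.03 and 1 higher at an unadjusted p under 0.05 (5.13% of all genes). That gene was Plcg2, a phospholipase C of leukocytes and tuft cells (0.18, SE 0.07, adjusted p = 0.222), followed by Itpr2 (0.11, adjusted p = 0.358). Among relatives of the 3 transcription factors, 0 of 7 passed, with Pou2f2 at -0.14 (adjusted p = 0.311) and Ascl5 at 0.15 (adjusted p = 0.486). The taste receptor genes, which tuft-like cells use in other airways, gave 0 of 37 and a median of 0.04.

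Lists for other cells of the mucosa were set beside the members. The sustentacular list (0 of 12 passed, median 0.03), horizontal basal cells (0 of 6, median 0.07), Bowman's glands (0 of 9, median 0.01), respiratory secretory cells (0 of 8, median 0.10), vomeronasal markers (0 of 4, median -0.03) and autonomic neurons (0 of 6, median 0.09) held no gene that passed, and respiratory ciliated cells had a median of -0.08 (0 of 10). By contrast 8 of 19 mature OSN markers fell and 0 rose (median -0.62), while 1 of 15 immature OSN markers fell (median -0.02). The immature list includes Lhx2, the deleted gene, which did not pass. Among all genes 2.07% fell. As in the 8 members, every difference was above 0 in the lists of respiratory secretory cells (8 of 8), autonomic neurons (6 of 6) and macrophages and leukocytes (15 of 15). The lists differ in size and in how bright their genes are, and the difference between lists was not tested.

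**Figure D4:**
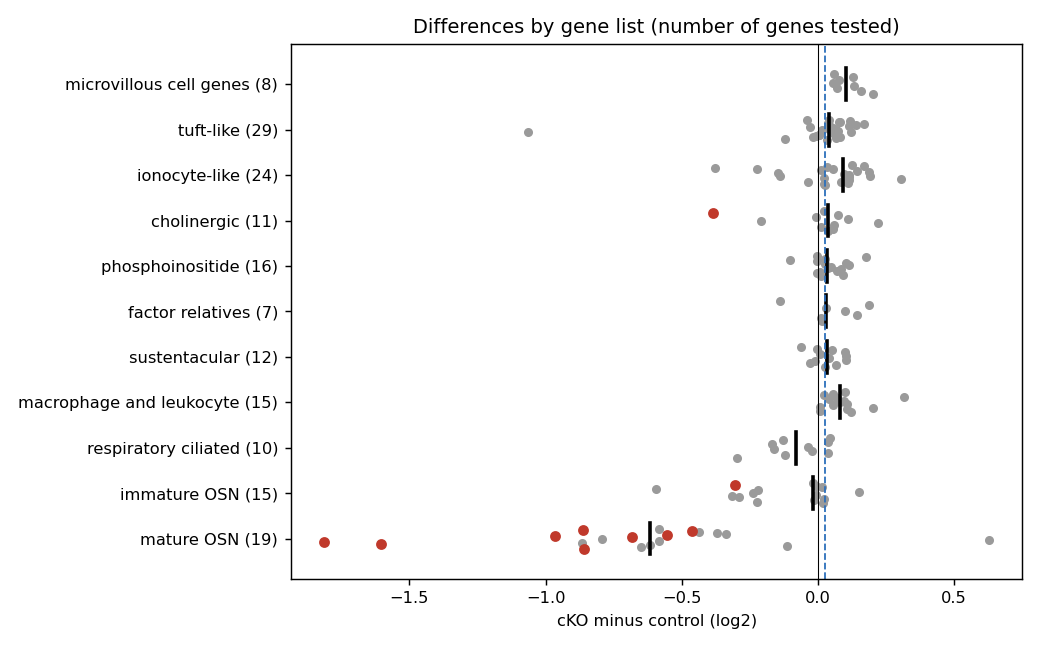
Each point is the cKO minus control difference of a gene on the log2 scale, by list, with the number of genes tested in brackets. Red points passed an adjusted p under 0.01, black bars mark the list medians and the dashed blue line the median of all genes (0.03), and the 8 microvillous cell genes lie right of 0 beside a mature OSN list with its median at -0.62. All 15 macrophage and leukocyte genes also lie right of 0.

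The sequences before the start sites of these genes were read from RefSeq (GRCm38.p6), where 7 of the 8 had an entry. Pou2f3 had none, so its promoter was not searched. The 250 bases before each start were searched on both strands for the octamer ATGCAAAT, bound by factors of the Pou2f group, the LIM-homeodomain core TAATTA, the E-box CAGCTG and the forkhead site GTAAACA, none of which contains another. The octamer was found in 1 of the 7, Itpr3, against 1.6% of all 32851 promoters, and the E-box in 1 of the 7, Chat, against 13.0%. The other two motifs were found in 0 of the 7, against 4.84% and 3.17%. Both stretches with a match are shown 5′ to 3′ because they belong to members of the transduction and output groups, with the motif in capitals.
Itpr3, chr17:27057204-27057303, plus strand: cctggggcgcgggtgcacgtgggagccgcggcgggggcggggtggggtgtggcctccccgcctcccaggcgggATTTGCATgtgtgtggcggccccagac
Chat, chr14:32466010-32466109, minus strand: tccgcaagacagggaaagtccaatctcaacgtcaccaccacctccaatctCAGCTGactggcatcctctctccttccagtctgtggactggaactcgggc
The octamer of Itpr3 reads as its reverse complement and begins 27 bases before the start, and the E-box of Chat begins 150 bases before it. Such a match is a description of letters, and neither gene differed past the threshold between the groups.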

How the data were processed

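The authors deposited a table of log2 values for 28312 transcript clusters of the Mouse Gene 1.0 ST array, in which probes across a gene are summarized. Affymetrix Expression Console is named in the submitters' notes, while its version, background correction and normalization were not found in the labels or methods. Dim genes change less on this scale than their RNA, and the number of arrays limits the precision.

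The platform annotation named 21759 clusters by 1 symbol, 1605 by several and 4948 by none, and 21668 were matched by Entrez identifier to RefSeq genes of GRCm38.p6, which changed 0 symbols. The brightest cluster per gene was kept (19928 genes). Differences were tested with limma 3.58.1 in R 4.3.3 (lmFit and eBayes, 2-sided, all 8 arrays, Benjamini-Hochberg, adjusted p under 0.01), after the fit had been tested on simulated data. Each litter gave both mutants and controls per the study's methods, but the labels do not tie mice to litters, so litter could not enter the fit. Replicate numbers follow accession order and pair nothing. The members and lists were chosen with earlier results of these data known, and listed genes without a single-symbol cluster were not analysed here. In each list up to 4 genes with the smallest p were named. Lhx2 and Omp were named as checks, and Cyp2g1 was added beside them outside this rule. Other genes outside this rule are marked as named after their values were seen. Alternatives covered the test, threshold, variance model, normalization, filter, clusters, title letter, array weights, control genotype and each mouse left out.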

Additional observations from a re-analysis of the deposited data

Results flagged for a closer look

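None of the 16 sets of 4 values of the microvillous cell genes (8 genes in 2 groups) held a mouse that stood apart by Dixon's criterion (0 sets). Among the 62 sets of all genes tested for this, 4 did, where chance flags about 1 in 20. In cKO mouse 2 the values were lowest for Lhx2 (12.55, against 13.01 to 13.03 in the other mutants), Omp (11.997, against 12.59 to 12.68) and Gng13 (9.96, against 11.21 to 11.34). Control 4 read 14.31 for Cyp2g1, against 14.30 in the other controls, a gap of 0.01 or less on the log2 scale.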

How the results depend on the processing

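No paired analysis was possible because the replicate numbers follow accession order and tie no control to a mutant. In all 23 settings 0 microvillous cell genes passed in either direction, and all differences measured were above 0 except for Itpr3 (-0.030) and Plcb2 (-0.028) with Lhx2(fl/+) controls alone and Cftr within title letter A (-0.018) and with 123Cre:Lhx2(fl/+) controls alone (-0.00025). The cause was not tested. Chat falls below the filter on the lower quartile and has no value there. Over all genes 412 were lower and 12 higher. These counts were 0 and 1 by the methods' t-test after adjustment, 1123 and 236 without adjustment, 1031 and 73 at an adjusted p under 0.05, 244 and 5 with every cluster, 0 and 0 with either control genotype alone, and 5 were higher within title letter A. Without single mice they ranged from 30 (without control 1) to 657 (without cKO 2) lower and from 0 to 19 higher. The 5 related lists held 1 lower gene, Slc44a4. They held 0 by the adjusted t-test, with every cluster, with title letter as a fixed block and with either control genotype alone, 1 with the letter as a random block, 3 lower and 1 higher by the unadjusted t-test, and 0 to 1 lower without single mice. Without cKO mouse 2 and within title letter A the 1 lower gene was Gng13, and Slc44a4 did not pass there. Slc18a3 turned to 0.030 after quantile normalization, 0.014 with title letter as a fixed block, 0.035 within letter A and 0.048 with 123Cre:Lhx2(fl/+) controls alone, and lay between -0.039 and 0.039 without single mice. Slc5a7 lay between -0.0079 and 0.045 without single mice. Gnat3 turned to -0.21 within letter A and -0.090 with 123Cre:Lhx2(fl/+) controls alone, and lay between -0.074 and 0.19 without single mice.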
